A study of Homo sapiens with 36 samples.

Results

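Open chromatin was followed at 6 human genes of matrix glycoproteins, TNC, FN1, THBS1, THBS2, POSTN and SPARC, in 36 ATAC-seq libraries of the BT549 cell line, which is of triple-negative breast cancer and labelled WT. ATAC-seq uses a transposase that cuts and tags accessible DNA, and each library came as a list of peaks with positions on hg38. Overlapping peaks of all 36 libraries were merged into 259704 regions, and the 133 whose centre lay in one of the 6 genes or within 50 kb of either end were taken. The genes are 6 of the 19974 protein-coding genes of the annotation. TNC had 36 of the regions, FN1 16, THBS1 19, THBS2 22, POSTN 13 and SPARC 27, and none was assigned to more than 1 of the genes.

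The libraries form 10 groups in 3 experiments, each on the same cell line. In the first, cells received siRNA against the transcription factor GATA6 (siGATA6, a pool, 72 h) or control siRNA (siCtl), and then 500 nM dexamethasone (DEX) for 2 h or vehicle, giving siGATA6 with DEX, siGATA6 with vehicle, siCtl with DEX and siCtl with vehicle, with 3 libraries each. The second gave cells the SWI/SNF inhibitor BRM014 at 10 µM with 500 nM DEX, BRM014 alone, DMSO with DEX, or DMSO alone, for 4 h and with 4 libraries each. The third compared siRNA against both SWI/SNF ATPases (siBRG1+siBRM) with siCtl, at 4 libraries each, and the duration of that knockdown is not given in the sources used here. The labels number the libraries of a group as Biorep and do not say whether these are separate cultures, so the p-values measure only the spread between these libraries, which may be technical.

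These genes encode secreted glycoproteins that surround cells. Fibronectin (FN1) is a fibrillar scaffold to which integrin receptors attach, and tenascin-C (TNC), the thrombospondins (THBS1, THBS2), periostin (POSTN) and SPARC are matricellular proteins, which modulate attachment and signalling rather than bear load. In breast tumours such proteins come from stroma and also from mesenchymal-like cancer cells. SWI/SNF complexes use the ATPase BRG1 or BRM to slide or evict nucleosomes, which opens enhancers and promoters to transcription factors, and BRM014 inhibits both ATPases. Dexamethasone activates the glucocorticoid receptor, which binds DNA as a transcription factor. An open region near a gene is not a measurement of its transcript, and none is made here.

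The starts of the 6 genes differed in accessibility, and 4 of the starts are shown here so that the open ones can be set beside the closed one. Each sequence is the 250 bases before the start, from RefSeq (GRCh38.p14), where all 6 genes had an entry. Capitals mark matches to TGANTCA, the core bound by AP-1, or GGAATG, bound by TEAD factors, on either strand.
TNC, chr9:115118158-115118407, minus strand: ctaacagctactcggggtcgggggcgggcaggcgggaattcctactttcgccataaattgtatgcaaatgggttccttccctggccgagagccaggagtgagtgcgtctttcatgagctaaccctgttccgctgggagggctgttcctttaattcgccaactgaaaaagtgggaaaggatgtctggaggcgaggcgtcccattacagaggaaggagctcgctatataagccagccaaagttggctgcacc
FN1, chr2:215436069-215436318, minus strand: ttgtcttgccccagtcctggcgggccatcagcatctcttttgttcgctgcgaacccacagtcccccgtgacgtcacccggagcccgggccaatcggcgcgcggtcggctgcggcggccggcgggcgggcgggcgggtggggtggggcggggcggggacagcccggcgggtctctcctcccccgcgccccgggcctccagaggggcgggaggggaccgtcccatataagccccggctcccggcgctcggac
THBS2, chr6:169253847-169254096, minus strand: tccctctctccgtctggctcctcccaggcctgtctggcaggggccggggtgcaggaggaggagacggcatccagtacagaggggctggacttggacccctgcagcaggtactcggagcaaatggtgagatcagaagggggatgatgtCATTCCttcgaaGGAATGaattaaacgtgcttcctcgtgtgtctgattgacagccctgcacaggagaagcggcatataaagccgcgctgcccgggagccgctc
POSTN, chr13:37598769-37599018, minus strand: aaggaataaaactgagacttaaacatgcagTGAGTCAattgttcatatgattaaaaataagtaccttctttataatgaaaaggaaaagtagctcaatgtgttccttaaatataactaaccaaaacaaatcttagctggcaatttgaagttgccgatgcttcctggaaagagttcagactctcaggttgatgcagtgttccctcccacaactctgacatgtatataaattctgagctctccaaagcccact
The POSTN stretch had a GC content of 36.4% and 1 CpG, against 54.8% and 12 at TNC, 60.0% and 12 at THBS2 and 76.4% and 32 at FN1, and the median over 35116 promoters of that length was 58.0% with 11 CpG. The AP-1 letters were found at POSTN, as TGAGTCA at bases 220 to 214 before the start, and at none of the other 5 genes, against 6.57% of all promoters. GGAATG or its complement stood in 3 of the 6, at THBS1, THBS2 (a facing pair) and SPARC, against 11.9% of all promoters. The GATA letters AGATAA (9.17% of all promoters) and the full palindromic element of the glucocorticoid receptor (0.00285%) had no match in these 6 windows. No printed stretch holds overlapping matches of 2 motifs, and a match describes letters only.

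The merged region over the start of TNC, FN1, THBS1 and SPARC held a peak in all 36 libraries and that of THBS2 in 34. Here and below, a peak at a start means a peak in this region, which was up to 889 bp wide. Whether each peak reached the start itself was not counted. Only 3 libraries had a peak at the POSTN start, 1 of siGATA6 with DEX at a fold of 4.77, 1 of siCtl with vehicle at 3.17 and 1 of DMSO with DEX at 3.88. The fold is the peak caller's own enrichment of a peak over background, as deposited. It is not scaled between libraries, so folds are given to describe each list.

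Peaks per library numbered from 37184 to 131423. BRM014 libraries had 43.0% fewer than DMSO libraries, BRM014 with DEX 43.8% fewer than DMSO with DEX, and siBRG1+siBRM 40.6% fewer than siCtl. The background level recovered from weak peaks, which follows depth, was 0.980, 1.03 and 0.960 times that of the control group in these comparisons. The siBRG1+siBRM libraries ranged most, from 37184 to 66607 peaks. Knockdown of GATA6, BRG1 or BRM cannot be checked in peak lists. A marker was counted as open where a peak lay within 1 kb of its start, or of either end for genes without an annotated strand. The mesenchymal markers VIM, TWIST1, CAV1 and FOSL1 were open in all 36 libraries, and the others in 29 (ZEB1), 32 (AXL) and 0 (CDH2). Of 6 luminal markers ESR1 was closed in every library, FOXA1 and ERBB3 were open in all 36, GATA3 in 27, KRT8 in 14 and PGR in 2. Of 4 endothelial markers PECAM1, CDH5 and VWF were closed and TEK was open in 18 libraries, and of the leukocyte markers PTPRC was closed, CD3E was open in 16 and CD14 in all 36. Of 5 stromal markers PDGFRA and COL1A1 were open in all 36 libraries, PDGFRB in 34, DCN in 32 and LUM in none, and of 4 neural markers SNAP25 was open in all 36, SOX10 in 1 and RBFOX3 and GFAP in none. The part of other cells in the results was not tested.

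Of the 133 regions, 14 were held by all 36 libraries, meaning that each library had a peak overlapping them, and 31 by a single library. At least 18 libraries held 43 of them. Gene bodies, start regions apart, held 53 of the regions and the other 80 lay at starts or outside. POSTN had none in its gene body, while THBS1 had 15 of its 19 inside. Of the regions held by all libraries SPARC had 6, TNC, FN1, THBS1 and THBS2 had 2 each and POSTN none. Among the 14 the highest mean fold was 37.2, at a SPARC region 34.7 kb downstream of the start, which is also the promoter of the lncRNA LOC105378231, and the lowest was 7.69, at the TNC start.

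TNC lies on chromosome 9 at 115019575 to 115118157, minus strand. The 4 BRM014 libraries held 5, 5, 6 and 5 TNC regions, against 14, 15, 14 and 16 in the DMSO libraries. With DEX present the BRM014 libraries held 6, 5, 4 and 5 and the DMSO libraries 14, 12, 13 and 13. With siBRG1+siBRM the numbers were 6, 5, 4 and 5, and with siCtl 12, 12, 10 and 11. In each of the 3 pairs every treated library lay below every control. At 4 against 4 only groups without overlap, in either direction, give an exact permutation p under 0.05. Over all genes this was so at 7538 of 19486 for BRM014, 8509 of 19467 for BRM014 with DEX and 6132 of 19436 for the knockdown. The libraries with siGATA6 and DEX held 17, 20 and 22, siGATA6 with vehicle 25, 21 and 21, siCtl with DEX 16, 13 and 18 and siCtl with vehicle 18, 19 and 23, which overlap between groups.

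**Figure D1:**
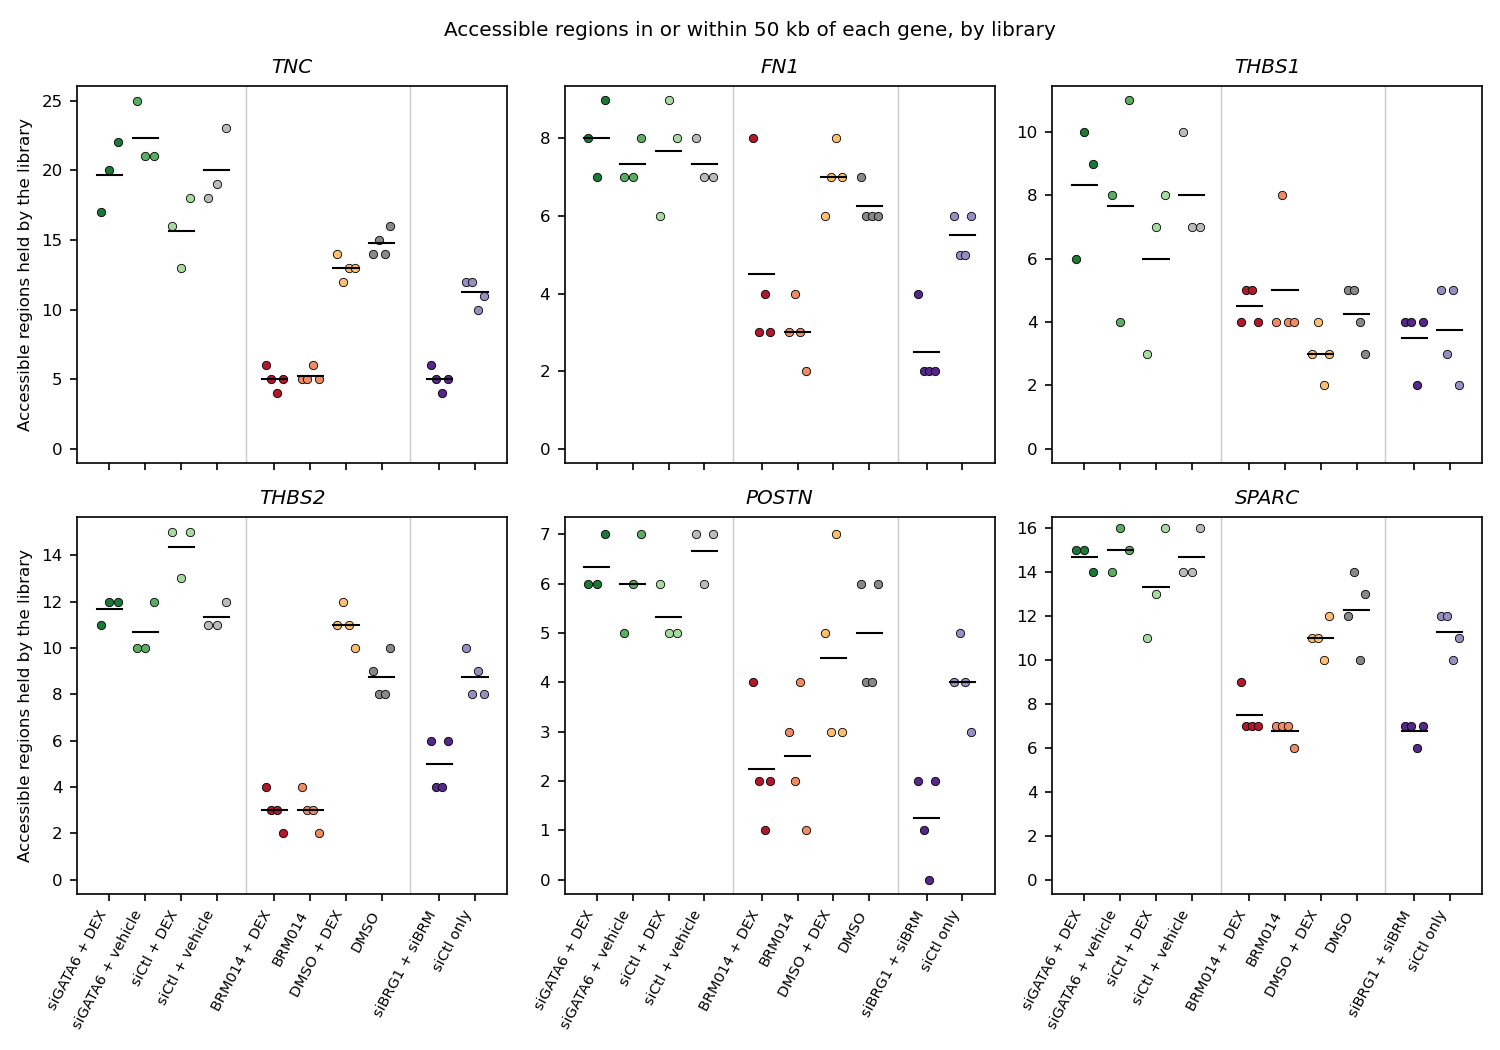
Number of accessible regions in or within 50 kb of each gene (y axis) in each of the 36 libraries (points), by group, with the group mean as a bar; lines part the 3 experiments. TNC, THBS2 and SPARC points of BRM014 (with or without DEX) and of siBRG1 + siBRM lie below all points of their controls, and THBS1 points overlap.

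The inhibitor comparison asks which of these open regions depend on SWI/SNF activity. With BRM014, regions around TNC, FN1, THBS2 and SPARC had no peak while the starts of TNC, FN1, THBS1 and SPARC had a peak in every library. A region is called lost where no treated library and every control library held it, and gained in the reverse case. Where peaks had to cover at least 50% of a region, the FN1 and SPARC starts were called lost with BRM014, both with and without DEX. BRM014 against DMSO lost 14 of 74 member regions (18.9%), of which TNC had 7, THBS2 3, FN1 2 and SPARC 2, and 11.3% of all regions were lost in that comparison. None was gained, against 0.041% of all regions (1 without DMSO replicate 1). BRM014 with DEX against DMSO with DEX lost 13 of 76 (17.1%, against 11.6% of all regions), with 6 at TNC, 5 at THBS2, 1 at FN1 and 1 at SPARC. A single region was gained, at THBS1, against 0.0761% of all regions. These 2 comparisons share no library, and 9 lost regions were common to both, which is 64.3% of the first list and 69.2% of the second, beside 56.5% and 51.2% over all regions.

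Both comparisons were joined in an exact permutation test within each DEX level, with 4900 arrangements and Benjamini-Hochberg adjustment over all 180758 regions. The share of libraries holding a region fell at 13 of 91 member regions (14.3%, against 8.12% of all regions) and rose at 1 (0.0172% of all regions). TNC had 7 of the 13, THBS2 4, FN1 1 and SPARC 1, and the region that rose was at THBS1. For the 9 that no BRM014 library and every DMSO library held, the exact permutation p was 0.000408, the smallest that these arrangements give, and the adjusted p was 0.00848. The other 5 of the 14 called had a p of 0.00204 and an adjusted p of 0.0251. Keeping the same number of best peaks in each library of the experiment left 3 regions lower, with 5 lost without DEX and 3 lost with it. The regions still lost in both comparisons were at TNC 49.2 kb upstream, at FN1 25.0 kb past the start and at THBS2 38.8 kb past it. Those lost only without DEX were at TNC 3.17 kb upstream and at FN1 33.9 kb past the start. Counting only regions within 10 kb of a gene left 6 lower, and within 100 kb 22.

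Over whole genes, the number of regions held fell at 5 of the 6 under the same test, where 68.8% of 19603 genes fell and 0.0561% rose. The difference between BRM014 and DMSO libraries was -8.75 regions at TNC, -6.88 at THBS2 and -4.5 at SPARC (adjusted exact permutation p = 0.00148 each), -2.88 at FN1 (adjusted p = 0.00675) and -2.38 at POSTN (adjusted p = 0.0149). THBS1 differed by 1.13 (adjusted exact permutation p = 0.149), and the median over all genes was -2.13. Relative to the control mean, without and with DEX, TNC fell by 64.4% and 61.5% and THBS2 by 65.7% and 72.7%. The fall was 44.9% and 31.8% at SPARC, 52.0% and 35.7% at FN1 and 50.0% in both at POSTN. THBS1 rose by 17.6% and 50.0%, and the median change over all genes was -31.5% and -32.1%. With equal numbers of best peaks the TNC difference was -0.75 (adjusted exact permutation p = 0.144), that of SPARC -0.5 (adjusted p = 0.241) and that of POSTN 0.125, while THBS1 rose by 2.13 (adjusted p = 0.0149). Within 10 kb FN1 (adjusted exact permutation p = 0.0754) and POSTN (0.598) no longer passed, and within 100 kb THBS1 fell by 1.88 (adjusted p = 0.0302).

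**Figure D2:**
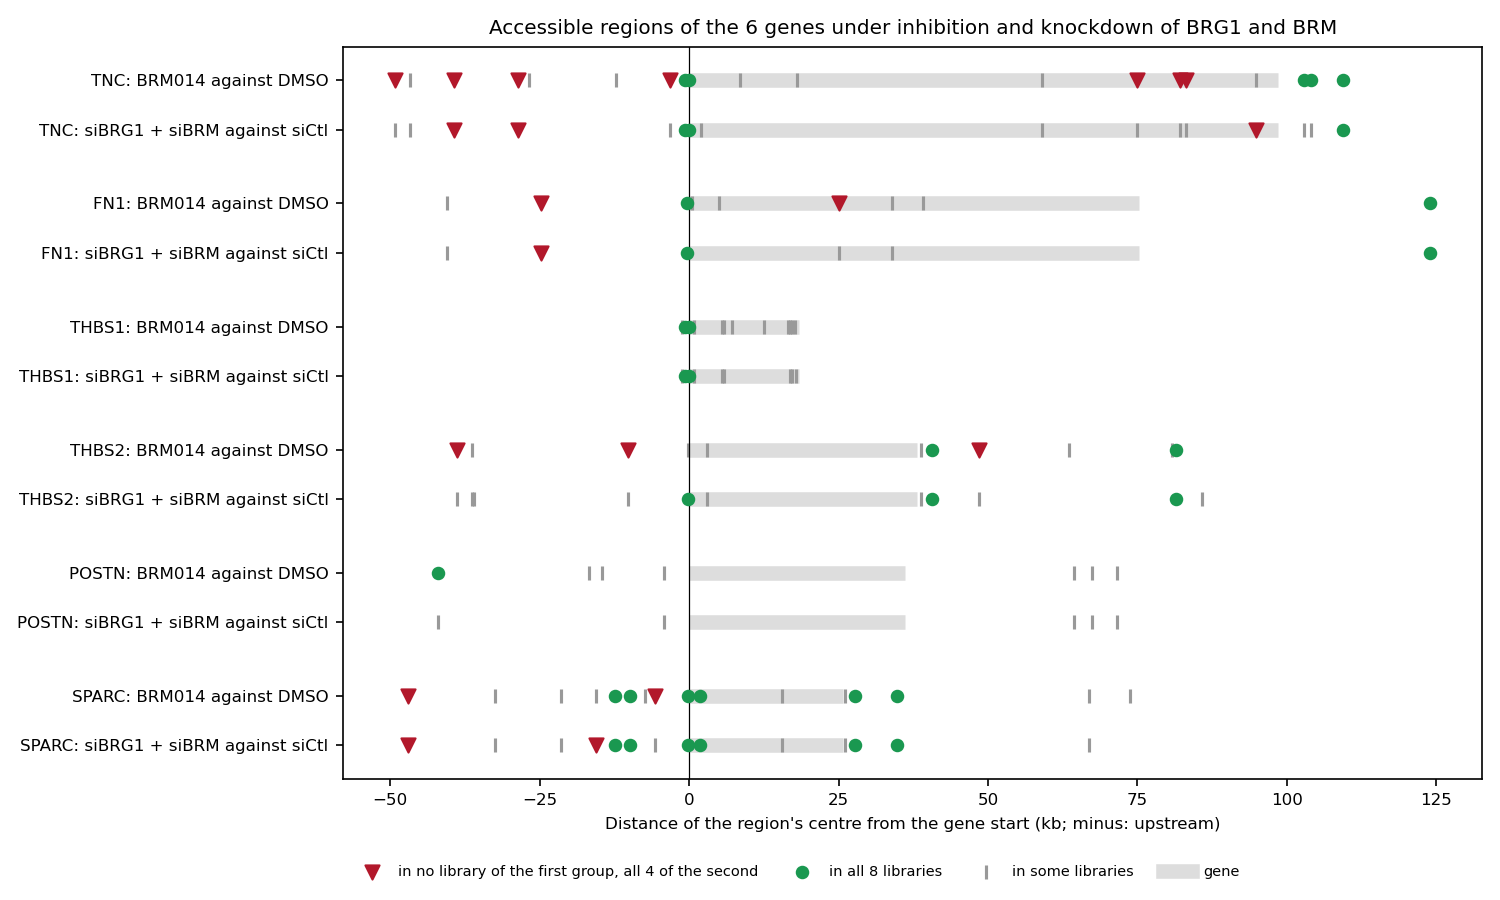
Position of each member region as the distance of its centre from the gene start in kb (x axis), with BRM014 against DMSO above siBRG1 + siBRM against siCtl for each gene; triangles mark regions that no treated and all 4 control libraries held, circles those in all 8 libraries, ticks those in some, and grey bars the gene. With BRM014 triangles number 7 at TNC, 2 at FN1, 3 at THBS2 and 2 at SPARC, and none lies at a start.

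Position was counted without a test and for the member regions only, so these counts do not show whether all regions divide the same way. Of the member regions that every DMSO library held, the 5 at a gene start were held by all 4 BRM014 libraries in 4 cases and by some in 1, which was THBS2. Inside the genes 1 of 6 was held by all BRM014 libraries and 4 by none. Upstream, 5 of 15 were held by all and 9 by none, and downstream 8 of 12 were held by all and 1 by none. The THBS2 start was missing from 1 library with BRM014 and 1 with BRM014 and DEX, both replicate 4, the library with the fewest peaks in each group.

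The 7 TNC regions lost with BRM014 lay upstream of the start or inside the gene, and none past its far end. The region 49.2 kb upstream of the start (chr9:115167135-115167570), in the lncRNA genes DELEC1 and LOC124902257, was held by no library with BRM014 or with BRM014 and DEX. Its fold was 17.2, 14.9, 10.3 and 13.8 in DMSO with DEX and 19.4, 14.0, 11.7 and 16.8 in DMSO alone. The siBRG1+siBRM libraries held it once, at 4.77, against 19.3, 19.8, 21.1 and 20.7 with siCtl. All 12 libraries of the GATA6 experiment held it, at 22.8 to 28.5. With 1 siBRG1+siBRM library holding it, it was not called lost in the knockdown. With equal numbers of best peaks it was called lost in both inhibitor comparisons and in the knockdown.

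Closer to the start, the region 28.6 kb upstream (chr9:115146550-115147010) was held by no library with BRM014, with or without DEX, and no siBRG1+siBRM library. Its fold was 9.67, 9.79, 8.52 and 7.71 in DMSO with DEX, 9.52, 15.9, 8.34 and 9.59 in DMSO alone and 11.8, 14.9, 13.6 and 10.6 with siCtl. The region 39.3 kb upstream, at the promoter of LOC124902257, followed the same pattern, with 7.07 to 12.9 over the DMSO libraries with and without DEX and 7.54, 13.4, 13.0 and 11.0 with siCtl. Both thus had a peak in every control library and none in any library with SWI/SNF inhibited or depleted. With equal numbers of best peaks neither was called lost in any of the 3 comparisons. Inside the gene, 83.2 kb past the start, no library with BRM014 had a peak, while the fold was 8.35 to 9.85 in DMSO with DEX and 8.01 to 10.8 in DMSO alone. The siBRG1+siBRM libraries had none there either, but only 2 of 4 siCtl libraries did, so it was not called lost. A region 94.9 kb past the start was lost in the knockdown alone, with 5.64, 5.99, 7.33 and 13.5 under siCtl, and 3 of 4 DMSO libraries and no DMSO library with DEX held it at 3.83 to 3.93.

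The TNC start itself (chr9:115118125-115118303) had a peak in all 36 libraries. Its fold was 8.96, 12.0, 13.3 and 9.19 in BRM014 with DEX, 11.5, 12.1, 7.12 and 7.13 in BRM014 alone, 9.22, 9.14, 6.89 and 8.55 in DMSO with DEX and 4.28, 7.90, 4.94 and 6.72 in DMSO alone. The neighbouring region 0.701 kb upstream was held by all 36 libraries, at 9.95 to 20.7. A region past the far end of the gene, 109 kb from the start and chosen after its values were seen, was held in 35 libraries, at folds that differed with the inhibitor. These were 5.38, 5.35 and 6.03 in 3 of 4 libraries of BRM014 with DEX, 9.25, 13.3, 14.0 and 5.57 in BRM014, 33.7 to 41.8 in DMSO with DEX and 38.7 to 42.7 in DMSO. With siBRG1+siBRM it stood at 17.2, 7.67, 7.20 and 14.0, against 36.4, 38.3, 38.8 and 38.9 with siCtl, and the ranges do not overlap in any of the 3 pairs. How many of all regions part by fold in this way was not counted.

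**Figure D3:**
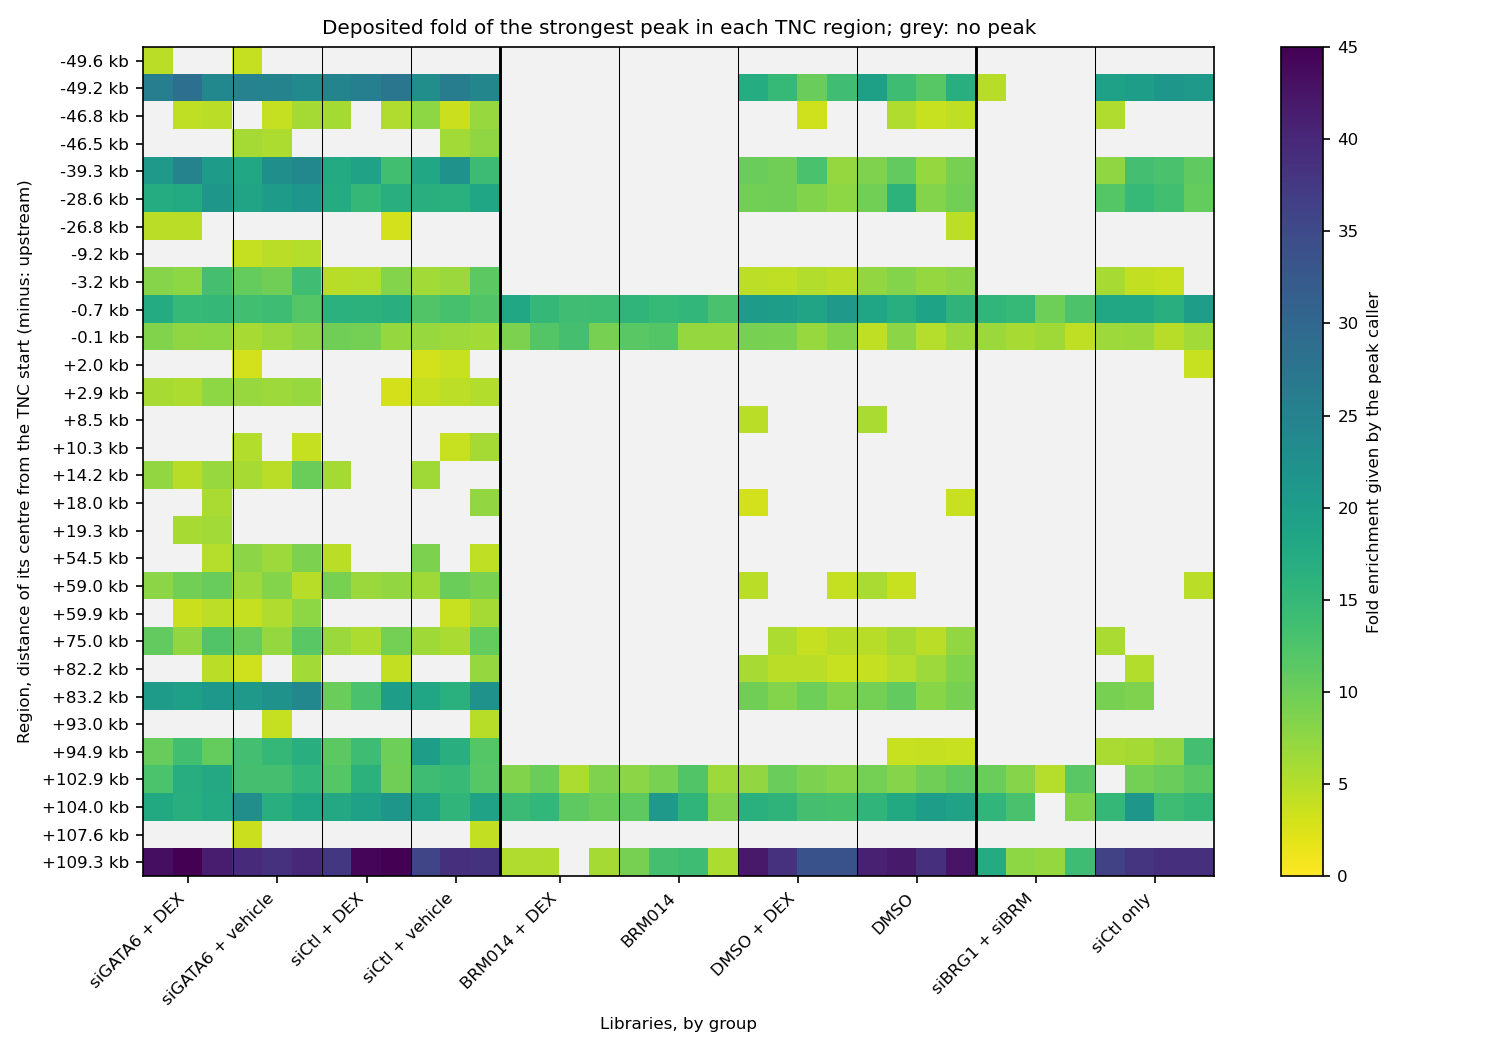
Fold of the strongest peak (colour) in each TNC region held by more than 1 library (rows, by distance of the centre from the start in kb) and each library (columns, by group); grey means no peak. The rows at -0.1 and -0.7 kb are filled in all 36 libraries, and the rows at -49.2, -39.3, -28.6 and +83.2 kb are empty under BRM014.

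Fibronectin, on chromosome 2 at 215360865 to 215436068 on the minus strand, lost a region inside the gene and one upstream. The intragenic region 25.0 kb past the start (chr2:215410798-215411293) was held by no BRM014 library and by 1 of 4 with BRM014 and DEX, at 4.04. DMSO with DEX gave 20.3, 13.2, 12.0 and 13.6 and DMSO alone 15.5, 19.7, 13.0 and 23.3. One siBRG1+siBRM library held it at 4.77, against 17.4, 15.9, 14.6 and 17.6 with siCtl. With equal numbers of best peaks it was lost in both inhibitor comparisons and in the knockdown.

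The upstream FN1 region, 24.8 kb before the start (chr2:215460614-215461073) in LOC102724849, was lost with BRM014 and in the knockdown. No BRM014 library held it, while 3 of 4 with BRM014 and DEX did, at 4.85, 6.21 and 5.31. DMSO with DEX stood at 22.6, 18.7, 16.9 and 17.8, and DMSO alone at 7.25, 7.68, 7.85 and 12.2. It was lost with siBRG1+siBRM, against 12.6, 11.2, 8.28 and 10.7 with siCtl. At 2 h it was held at 13.1, 13.1 and 17.9 in siGATA6 with DEX and 9.20, 5.29 and 7.56 in siGATA6 with vehicle, and at 18.6, 18.9 and 21.0 in siCtl with DEX and 13.0, 14.6 and 13.9 in siCtl with vehicle. In each of these 3 pairs the folds with DEX lay above those without, and both siGATA6 sets lay below their siCtl set. Folds are not scaled between libraries, and how many of all regions part in these ways was not counted. Another region, 39.2 kb past the start, was lost with BRM014 and DEX against DMSO with DEX, at 5.40, 7.19, 4.65 and 4.78.

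A further region inside FN1, 33.9 kb past the start and chosen after its values were seen, was held by 31 libraries. Its fold was 6.91, 7.47 and 5.26 in 3 of 4 libraries of BRM014 with DEX, 5.52, 5.39 and 5.67 in 3 of 4 of BRM014, 14.8 to 21.0 in DMSO with DEX and 20.8 to 25.2 in DMSO. One siBRG1+siBRM library held it at 7.95, against 23.9, 27.5, 24.4 and 24.7 with siCtl. It was lower in each treated library that held it than in any control, and it was called lost in none of the 3 comparisons. With equal numbers of best peaks it was called lost with BRM014 against DMSO, and with 50% cover in all 3 comparisons. How many of all regions part by fold in this way was not counted. The FN1 regions held by all 36 libraries were the start, at 5.35 to 15.3, and the promoter of the neighbouring gene ATIC, a purine synthesis enzyme, 124 kb past the FN1 start, at 25.9 to 38.3. FN1 regions per library numbered 3, 4, 3 and 2 in BRM014, against 7, 6, 6 and 6 in DMSO. With DEX the BRM014 libraries held 8, 3, 4 and 3 and the DMSO libraries 6, 7, 8 and 7, and the groups overlap through replicate 1 of BRM014 with DEX.

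THBS1, an inhibitor of angiogenesis and activator of latent TGF-β, lost no region in any comparison. It lies on chromosome 15 at 39581079 to 39599466 on the plus strand. Its start stood at 6.71 to 12.8 in all 36 libraries, and the region 0.733 kb upstream at 3.63 to 11.2. The region that rose with BRM014 lies 16.8 kb past the start, in the last part of the gene where FSIP1 also reaches (chr15:39597821-39597999). It was held at 4.71, 5.87, 5.25 and 4.35 in BRM014 with DEX, against no library of DMSO with DEX, and at 6.72, 6.22, 6.07 and 6.11 in BRM014, against 1 DMSO library at 3.32. One siBRG1+siBRM library held it at 4.49 and 1 siCtl library at 3.22, so the knockdown showed no such separation. The call was absent where a library had to cover at least 50% of a region. THBS1 regions per library numbered 4, 8, 4 and 4 in BRM014 and 5, 5, 4 and 3 in DMSO.

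THBS2, a thrombospondin that lacks the TGF-β activating sequence of THBS1, had the most called regions after TNC. It lies on chromosome 6 at 169215785 to 169253846 on the minus strand. With BRM014 the libraries held 4, 3, 3 and 2 regions, against 9, 8, 8 and 10 in DMSO, and with DEX 4, 3, 3 and 2, against 11, 12, 11 and 10. The knockdown gave 6, 4, 4 and 6, against 10, 8, 9 and 8 with siCtl. None of these pairs overlaps, beside 7538 of 19486 genes without overlap for BRM014, 8509 of 19467 with DEX and 6132 of 19436 in the knockdown. No THBS2 region was lost in the knockdown at the main settings. The one 48.5 kb past the start was held by all 4 siCtl libraries and by 1 siBRG1+siBRM library, at a fold of 3.97. It was called lost in the knockdown with a −log10 q of at least 5, and also where peaks had to cover at least 50% of a region.

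The region 10.2 kb upstream of THBS2 (chr6:169263919-169264205) had no peak in any library with BRM014, against 10.7, 8.46, 10.4 and 10.1 in DMSO with DEX and 10.6, 9.53, 8.43 and 14.0 in DMSO. No siBRG1+siBRM library held it, and 3 of 4 siCtl libraries did. Another, 38.9 kb upstream, was lost in both inhibitor comparisons as well, at 5.35 to 11.5 in DMSO with DEX and 6.67 to 10.1 in DMSO. Downstream, 38.8 kb from the start, BRM014 with DEX held none and BRM014 alone 1, at 3.99, against 15.3 to 16.0 in DMSO with DEX and 13.0 to 19.9 in DMSO. At equal numbers of best peaks it was lost both with and without DEX. The one 48.5 kb from the start was lost without DEX, against 11.9, 7.25, 7.48 and 9.29 in DMSO, and 3 of 4 libraries of DMSO with DEX held it. A pair of THBS2 regions was held by all 36 libraries, 40.7 kb from the start at the promoter of THBS2-AS1 and 81.5 kb from it. The one 81.5 kb away stood at 29.8, 26.0, 23.7 and 25.2 in BRM014 with DEX, 16.7, 15.2, 17.7 and 8.21 in BRM014, 27.8 to 31.7 in DMSO with DEX and 25.6 to 29.6 in DMSO.

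POSTN, on chromosome 13 at 37562585 to 37598768 on the minus strand, had few open regions and no lost one at the main settings. Its most widely held region lies 41.9 kb upstream within TRPC4, a cation channel gene, and was in 35 libraries, missing from replicate 3 of siBRG1+siBRM. The fold there was 10.1 to 23.5 in BRM014 with DEX, 15.5 to 30.0 in BRM014, 20.9 to 23.4 in DMSO with DEX and 20.6 to 26.7 in DMSO. POSTN regions per library were 3, 2, 4 and 1 in BRM014 and 6, 4, 4 and 6 in DMSO, which share a value. With siBRG1+siBRM they were 2, 1, 0 and 2, against 4, 5, 4 and 3 with siCtl. A region 64.4 kb past the start, chosen after its values were seen, stood at 6.57, 7.75 and 7.54 in siGATA6 with DEX and 11.8, 14.5 and 14.5 in siGATA6 with vehicle, and at 7.37, 9.18 and 9.64 in siCtl with DEX and 19.7, 24.5 and 15.7 in siCtl with vehicle. Every library with DEX was below every library with vehicle in that experiment. These folds are not scaled between libraries, and how many of all regions part in this way was not counted. At 4 h the folds overlapped, at 6.94, 3.88 and 5.58 in 3 of 4 libraries of DMSO with DEX and 6.45, 6.77, 6.28 and 5.18 in DMSO. In the knockdown experiment all 4 siCtl libraries and 1 siBRG1+siBRM library held this region. It was called lost there with a −log10 q of at least 5, and also with 50% cover.

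SPARC, a collagen-binding protein, lies on chromosome 5 at 151661096 to 151686915 on the minus strand. Its far upstream region at 47.1 kb (chr5:151733734-151734308) was lost in both inhibitor comparisons and in the knockdown. The fold was 9.51, 6.39, 5.43 and 6.68 in DMSO with DEX, 6.29, 6.67, 8.35 and 10.9 in DMSO and 6.93, 7.71, 7.50 and 4.74 with siCtl. The region 5.66 kb upstream was lost with BRM014 alone, at 6.01 to 8.61 in DMSO, and one 15.6 kb upstream was lost in the knockdown, at 3.75 to 5.01 with siCtl. The SPARC start had a peak in all 36 libraries. Its fold was 7.68 to 16.1 in BRM014 with DEX, 10.7 to 16.8 in BRM014, 14.3 to 19.7 in DMSO with DEX and 14.9 to 17.3 in DMSO. It was called lost in both inhibitor comparisons where peaks had to cover at least 50% of it. SPARC libraries held 7, 7, 7 and 6 regions with BRM014, against 12, 14, 10 and 13 with DMSO, and with DEX 9, 7, 7 and 7, against 11, 11, 10 and 12.

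The knockdown asks the same question with both ATPases depleted instead of inhibited. siBRG1+siBRM lost 6 of 61 member regions (9.84%, against 6.73% of all regions), 3 at TNC, 2 at SPARC and 1 at FN1, and gained none (0.0282% of all regions). Of the 14 lost with BRM014, 4 were lost here too, which is 28.6% of that list and 66.7% of the knockdown list, beside 30.8% and 58.3% over all regions, and the libraries are separate. These were the TNC regions 28.6 and 39.3 kb upstream, the FN1 region 24.8 kb upstream and the SPARC region 47.1 kb upstream. In every treated library the regions held numbered fewer than in any control at 5 genes, by 55.6% at TNC, 54.5% at FN1, 42.9% at THBS2, 68.8% at POSTN and 40.0% at SPARC on the means, beside a median change of -30.2% over all genes. The exact permutation p of each was 0.0286, the smallest that 4 against 4 allows, and 0.0906 after adjustment, so none passed, nor did any of 19436 genes (6132 had an unadjusted p under 0.05). The THBS1 counts were 4, 4, 2 and 4 with siBRG1+siBRM and 5, 3, 5 and 2 with siCtl (exact permutation p = 1). Without siBRG1+siBRM replicate 1, which had 66607 peaks against 37184 to 51438 in the other 3, 11 regions were lost, without siCtl replicate 4 there were 10, and with equal numbers of best peaks 2. Those 2 were the TNC region 49.2 kb upstream and the FN1 region 25.0 kb past the start. None of the 4 regions shared with BRM014 was among them.

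In siCtl and in DMSO the share of member regions gained with dexamethasone was close to that over all regions, and no member region passed the exact test joined over siRNA or inhibitor levels. siCtl with DEX at 2 h against siCtl with vehicle gained 2 of 98, both at THBS2 (2.04%, against 2.52% of all regions), and lost none (0.817% of all regions). DMSO with DEX at 4 h against DMSO gained 1 of 80, also at THBS2 (1.25%, against 1.56% of all regions), and lost none (0.434%). The region 34.9 kb upstream of THBS2 (chr6:169288663-169288921) was in both lists, whose libraries are separate. It stood at 8.21, 8.87 and 9.02 in siCtl with DEX and in no siCtl library with vehicle, and at 10.5, 9.36, 11.6 and 8.61 in DMSO with DEX and in no DMSO library. It was held at 6.91, 5.42 and 10.7 in siGATA6 with DEX, against 1 of 3 libraries of siGATA6 with vehicle at 4.60. No library of BRM014 with DEX held it, nor did any of BRM014 alone, so it was among the regions lost with the inhibitor in the presence of DEX. The other THBS2 region gained at 2 h, 79.8 kb past the start, stood at 3.80, 4.12 and 3.91 in siCtl with DEX.

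Joined over siRNA levels (400 arrangements) or inhibitor levels (4900), no member region and no gene count passed for DEX, and over all regions and genes none did. At an unadjusted p under 0.05 stood 1 of 116 member regions at 2 h and 1 of 91 at 4 h, and 2468 genes at 2 h and 1602 at 4 h. At the THBS2 region 34.9 kb upstream the exact permutation p was 0.02 at 2 h (adjusted 0.918) and 0.0286 at 4 h (adjusted 1). With no peak in any BRM014 library its p at 4 h could not fall below 0.0286, so the joined test could not decide on this region. At 2 h the smallest exact permutation p that 400 arrangements give is 0.005. Over all regions such a p passes adjustment only where very many regions reach it, so the 2 h test could not decide on single regions. TNC held 3.5 fewer regions with DEX than with vehicle at 2 h (exact permutation p = 0.05, adjusted 0.370) and THBS2 2 more (p = 0.025, adjusted 0.297). BRM014 with DEX against BRM014 gained none and lost none of 44 member regions (0.323% and 0.155% of all regions). The region gained at 4 h was not called where equal numbers of best peaks were kept or 50% of a region had to be covered. The lost count at 2 h in siCtl was 4, 1 and 2 without siCtl vehicle replicates 1, 2 and 3 and 3 without siCtl DEX replicate 3. At 4 h 1 was lost without DMSO replicate 1 and 2 were gained without DMSO replicate 2, and 1 was gained for BRM014 with DEX against BRM014 without replicate 2 of the first.

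With siGATA6 a region at THBS2 and one at TNC were called, 1 region in each comparison and direction with a call. Neither passed the exact test joined over DEX levels. The smallest p of that test passes adjustment only where very many of all regions reach it, so it could not decide on either. siGATA6 against siCtl lost 1 of 98 with vehicle (1.02%, against 0.806% of all regions) and 1 of 98 with DEX (1.02%, against 0.71% of all regions), the same region 35.9 kb upstream of THBS2 (chr6:169289720-169289869). It was in no siGATA6 library, against 5.23, 5.46 and 5.49 in siCtl with DEX and 7.09, 4.96 and 7.32 in siCtl with vehicle. Over both DEX levels the exact permutation p was 0.005, the smallest that 400 arrangements give, and 1 after adjustment over 203250 regions. It was held by 2 of 4 siCtl libraries of the knockdown experiment at 5.71 and 6.50, by 1 of DMSO with DEX at 3.58 and by no DMSO library. With a −log10 q of at least 5 it was not called with vehicle. The lost count with vehicle was 2 without siCtl vehicle replicate 1 or siGATA6 vehicle replicate 3.

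The TNC region 9.19 kb upstream (chr9:115127227-115127460) was gained with siGATA6 against siCtl in vehicle, where 0.459% of all regions were gained. It stood at 3.94, 4.63 and 5.04 in siGATA6 with vehicle and was in no other of the 36 libraries. It was therefore also the 1 of 102 regions lost with DEX in siGATA6 cells (0.595% of all regions), and none was gained there (2.36%) or with siGATA6 under DEX (0.677%). With no peak of this TNC region under DEX, its exact permutation p joined over DEX levels could not fall below 0.1. Counts of regions per gene did not pass for siGATA6 at any of the 6 genes (smallest exact permutation p = 0.05, at THBS2, adjusted 1), and 677 of 19588 genes had an unadjusted p under 0.05. Without siGATA6 DEX replicate 1 the regions gained with siGATA6 under DEX numbered 4, and without siCtl DEX replicates 3 and 1 they numbered 2 and 1. In vehicle 2 were gained without siCtl vehicle replicate 1 or siGATA6 vehicle replicate 2 or 3. Within siGATA6, DEX lost 3 without siGATA6 vehicle replicate 2 and 2 without vehicle or DEX replicate 3, and gained 1 without vehicle replicate 3 or DEX replicate 1 or 3.

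**Figure D4:**
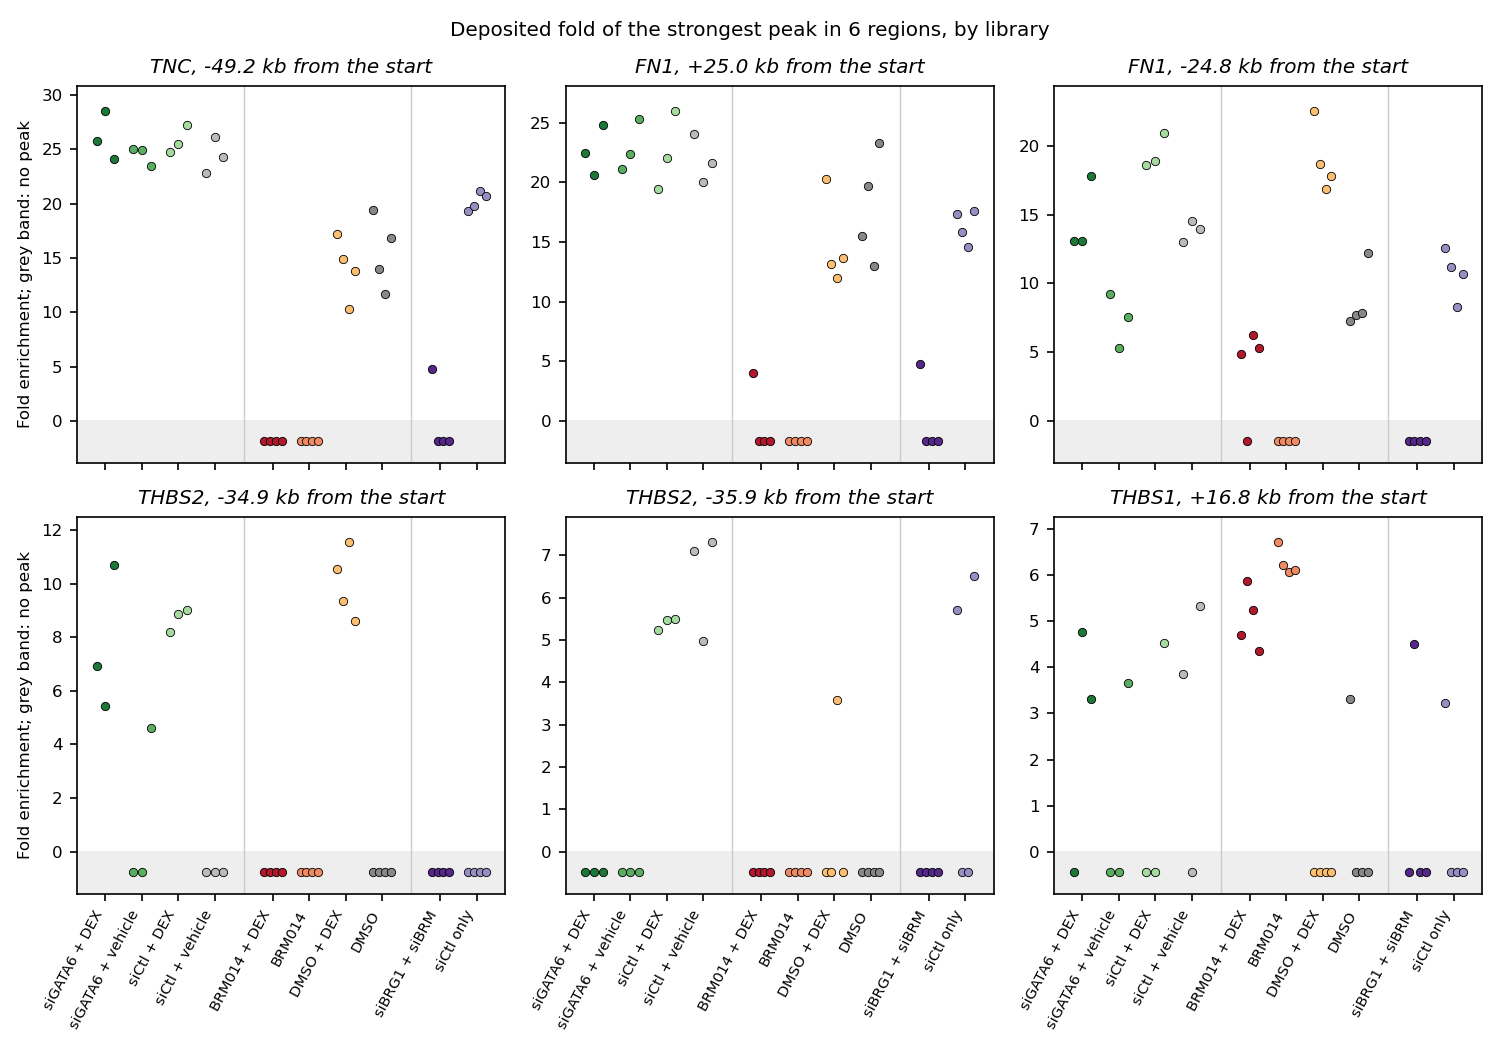
Fold of the strongest peak (y axis) in each library (points), by group, for 6 regions named by their distance from the gene start; points in the grey band are libraries with no peak. The THBS2 region at -34.9 kb has peaks at 5.42 to 11.6 in all 10 libraries with DEX and no BRM014, and the one at -35.9 kb has none in the 6 siGATA6 libraries.

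Other genes of the same kinds were counted in the same way. Of 38 further matrix glycoprotein and matricellular genes, 35 held fewer regions with BRM014 within DEX levels and none more, where 68.8% of all genes held fewer, with a median difference of -4.0 against -2.13 over all genes. BRM014 against DMSO lost at least 1 region at 30 of the 38, beside 51.9% of all genes, with 11 at LTBP1, which binds latent TGF-β, 11 at MATN2, 8 at FBLN2 and 8 at FBN1, the fibrillin of microfibrils. In the knockdown 23 of the 38 had a lost region, beside 35.3% of all genes, with 7 at MATN2, 5 at LTBP1 and 4 at FBN1. Of 14 receptors and binding partners, 13 held fewer regions with BRM014, beside the same 68.8% of all genes, with a median difference of -3.31 against -2.13 over all genes. At least 1 region was lost with BRM014 against DMSO at 11 of the 14, beside 51.9% of all genes, and 4 were lost at each of CD47, a thrombospondin receptor, and the integrin subunits ITGB3 and ITGB5. With DEX at 2 h in siCtl, 15 of the 38 matrix genes gained a region, beside 22.4% of all genes, with 3 at FBLN5, and 5 of the 14 receptors did, with 3 each at ITGB1 and ITGB5. No gene of either list passed the test for DEX or siGATA6. The differences and shares of both lists were not set against the number of regions that their genes hold.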

How the data were processed

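The authors deposited 1 peak list per library, so peaks were called in each library and not on pooled replicates. The submitters' processing notes name MACS2, HOMER, SAMtools and bcl2fastq with the build GRCh38 (hg38). The sources used here do not give the aligner, any read shift or how duplicates were handled. The deposited columns used are positions, the fold enrichment (a ratio over background) and the −log10 p-value and q-value, and the deposited score column entered no result. Read depth is unknown. MDA-MB-231 cells were not analysed here, and 1 leukocyte marker is not reported here.

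Peaks on chromosomes 1 to 22 and X were merged where they shared at least 1 bp, and a library held a region if a peak of it overlapped by 1 bp. Gene spans and starts came from RefSeq (GRCh38.p14). Background was solved from fold and p of 2000 weak peaks per library (tolerance 0.002). Group differences were tested with two-sided exact permutation tests, Benjamini-Hochberg adjusted over all regions or genes at 0.05, within levels of the other treatment where there are 2. The tests were tried on simulated data with known changes.

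Members, lists and tests were chosen with earlier results of these data known. Named regions are the one over each start, up to 3 called regions per gene and comparison with the highest mean fold, and the 2 held by most libraries, unless stated. Alternatives were a −log10 q of at least 5, equal numbers of best peaks per library within an experiment, peaks covering at least 50% of a region, windows of 10 and 100 kb, regions merged within an experiment, leaving out each library, and a replicate block. Python 3.11.15, numpy 2.4.6, pandas 2.3.3 and scipy 1.17.1 were used.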

Additional observations from a re-analysis of the deposited data

Results flagged for a closer look

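In 8 of the 36 sets of 4 libraries examined (6 genes, 6 groups), 1 library's number of regions held stood apart from the other 3, which were equal to each other. For continuous values chance gives about 1 such set in 20. That rate was not determined for small whole numbers, in which ties are common, so the number of sets cannot be read against it. In 4 of the 8 the gap was 1 region. TNC had 6 regions in BRM014 replicate 3, against 5 in the others. FN1 had 7 in DMSO replicate 1, against 6, and 4 in siBRG1+siBRM replicate 1, against 2. THBS1 had 8 in BRM014 replicate 2, against 4, and 2 in siBRG1+siBRM replicate 3, against 4. SPARC had 6 in BRM014 replicate 4, against 7, 9 in replicate 1 of BRM014 with DEX, against 7, and 6 in siBRG1+siBRM replicate 3, against 7. By peak number, BRM014 replicate 4 (41026) and siBRG1+siBRM replicate 3 (37184) are the lowest libraries of their groups, and siBRG1+siBRM replicate 1 (66607), BRM014 replicate 3 (60995) and replicate 1 of BRM014 with DEX (64198) the highest. DMSO replicate 1, with the higher FN1 count, has the fewest peaks of its group (88348), and BRM014 replicate 2 (60716) is second in its group. The part of peak number in these values was not tested.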

How the results depend on the processing

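The counts of lost and gained regions moved with the settings, and the cause was not tested beyond what each setting does by construction. BRM014 against DMSO lost 5 with equal numbers of best peaks, 6 within 10 kb and 23 within 100 kb, and gained 1 with a −log10 q of at least 5 and 2 with equal numbers. With DEX, BRM014 lost 3, 5 and 22 under the same 3 settings and gained 0 with the q limit, equal numbers or 50% cover. Within DEX levels the regions lower were 3, 6 and 22, and 0 were higher with 50% cover. siBRG1+siBRM lost 2 with equal numbers and 1 within 10 kb. With the q limit, and also with 50% cover, the regions lost in the knockdown changed. They then included a THBS2 region 48.5 kb past the start and a POSTN region 64.4 kb past the start, and no SPARC region. siCtl with DEX against vehicle lost 2 with the q limit, 1 with equal numbers, 2 with 50% cover and 1 within 100 kb, and gained 0 within 10 kb. siGATA6 with DEX against vehicle lost 2 with equal numbers, 3 with 50% cover and 3 within 100 kb, and gained 1 with the q limit and within 100 kb. siGATA6 against siCtl in vehicle lost 0 with the q limit or within 10 kb and 3 with 50% cover, and gained 0 with the q limit and 2 with 50% cover. Under DEX it lost 3 with 50% cover, 0 within 10 kb and 2 within 100 kb, and gained 2 with the q limit and 1 with equal numbers, 50% cover or 100 kb. DMSO with DEX against DMSO lost 1 with equal numbers or 50% cover, and gained 0 with equal numbers, 50% cover or 10 kb and 4 within 100 kb.

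Leaving out 1 library gave 14 to 16 lost for BRM014, 13 to 15 for BRM014 with DEX, 13 to 15 lower and 1 higher within DEX levels, and 6 to 11 for siBRG1+siBRM. Lost regions were 0 to 4 for siCtl with DEX, 1 to 3 for siGATA6 with DEX against vehicle, 1 to 2 for siGATA6 in vehicle, 1 under DEX and 0 to 1 for DMSO with DEX. Gained ones were 2 to 3, 0 to 1, 1 to 2, 0 to 4 and 1 to 2 in the same order, and 0 to 1 for BRM014 and for BRM014 with DEX against BRM014.

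The replicate numbers are not shown to pair libraries (same-number correlations of -0.034 to 0.101). With a replicate block, 0 regions were lower and 0 higher for BRM014 within DEX levels, and all 5 gene counts that fell still passed, with TNC at an adjusted exact permutation p of 0.0196. The block allows fewer arrangements, and its smallest p passes over 180758 regions only where very many reach it. It could therefore not decide on single regions.

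Differences in regions per gene that changed sign were small, apart from THBS1 with BRM014 within 100 kb (-1.88). POSTN with BRM014 was 0.125 at equal numbers. For siBRG1+siBRM at equal numbers THBS1 was 0.75 and THBS2 0.25, and THBS1 was 0.167, 0.167 and 0.25 without siCtl replicate 1, siCtl replicate 3 or siBRG1+siBRM replicate 3. For DEX at 4 h POSTN was 0.125 within 10 kb, and SPARC -0.625 to 0.0417 with 1 library left out (0.0417 without DMSO replicate 2). For DEX at 2 h FN1 was -0.667, THBS1 0.833 and SPARC 1.0 within 100 kb, POSTN 0.167 with 50% cover and 0.333 within 10 kb, and THBS1 -1.58 to 0.167 with 1 library left out (0.0833 and 0.167 without siCtl DEX replicate 1 or siGATA6 vehicle replicate 3). For siGATA6, FN1 was -0.5 and THBS1 -0.833 with the q limit and THBS1 -0.333 with 50% cover. Without siCtl DEX replicate 1, siGATA6 DEX replicate 3 or siGATA6 vehicle replicate 3, FN1 was -0.25, FN1 -0.0833 and POSTN -0.0833, in ranges of -0.25 to 0.5 for FN1 and -0.0833 to 0.417 for POSTN.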
